A study of Mus musculus with 8 samples.

Results

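The genes described here encode the enzymes that make lipoic acid and attach it to mitochondrial proteins, together with subunits of the complexes that carry it. Several of them are known from work on copper-induced cell death (cuproptosis). The genes were taken by symbol as 10 rows of a deposited mouse gene expression table of 34745 genes, namely Fdx1, Lias, Lipt1, Lipt2, Gcsh, Pdha1, Pdhb, Dlat, Dlst and Dld. All 10 had enough counts to be tested, as had 16576 genes in all. The table holds messenger RNA sequencing of mouse renal tissue at day 14. The groups were kidney labelled uIRI with MSCs transplantation (written uIRI+MSC here, n = 3), kidney labelled uIRI (n = 3) and sham kidney (n = 2), all of genotype WT. Nephrologists use uIRI for ischaemia and reperfusion of a single kidney and MSC for a mesenchymal stem or stromal cell, but the labels spell out neither, and they give no strain, age, sex, cell source, cell dose or time of transplantation. The labels do not tie each library to an animal of its own, so the p-values speak only of the spread among these libraries, which may be technical.

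Lipoic acid is built in place on its carrier protein inside mitochondria. LIPT2 moves an octanoyl group onto GCSH, the H protein of the glycine cleavage system, the radical enzyme LIAS inserts the sulfur atoms, and LIPT1 passes the finished lipoyl group to the E2 subunits of the 2-oxoacid dehydrogenases. FDX1 is a small iron-sulfur protein that passes electrons to mitochondrial enzymes and was found in human cell lines to be needed both for protein lipoylation and for killing by copper ionophores, where copper binds the lipoylated E2 proteins. The proximal tubule, which makes up much of the kidney cortex, depends on mitochondrial respiration and so carries these complexes in quantity.

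The lipoyl group sits on a lysine in a conserved stretch of each lipoyl domain, and the coding sequence around that lysine is shown because it is the part of Dlat, Dlst and Gcsh, the known carriers among the 10, that holds the group. A search in the reading frame of these 3 genes, the others not searched, for codons of Glu-Thr-Asp-Lys in Dlat and Dlst, and of Glu-Ser-Val-Lys in Gcsh, found 2 sites in Dlat, 1 in Dlst and 1 in Gcsh (GENCODE M21 transcripts on GRCm38, 5′ to 3′, lysine codon in capitals).
Dlat, codon 131: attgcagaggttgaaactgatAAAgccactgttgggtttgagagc
Dlat, codon 258: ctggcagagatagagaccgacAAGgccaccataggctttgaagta
Dlst, codon 111: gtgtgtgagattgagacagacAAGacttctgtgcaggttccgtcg
Gcsh, codon 104: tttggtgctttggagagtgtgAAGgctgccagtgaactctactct

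On GRCm38 the genes lie apart from each other. Fdx1 (ENSMUSG00000032051) spans chromosome 9, 51943307 to 51963533 on the minus strand, and Dlat (ENSMUSG00000000168) the same chromosome at 50634633 to 50659780. Dld (chromosome 12, 31331564 to 31351437) and Dlst (chromosome 12, 85110833 to 85134091) share a chromosome, and Pdha1 (chromosome X, 160122209 to 160138413) is X-linked. Pdhb is on chromosome 14 (8165991 to 8172992), Gcsh on 8 (116981810 to 116993537), Lias on 5 (65391497 to 65410693), Lipt2 on 7 (100159277 to 100161365) and Lipt1 on 1 (37871738 to 37876228). Exons of Lipt1 share 12.8% of their bases with Mitd1 and exons of Pdha1 share 16.1% with Map3k15, both on the opposite strand. The sources used here do not state whether counting used strand, so reads in those stretches cannot be told apart. Mitd1 had 60 to 340 counts a library, more than the 54 to 134 of Lipt1 at the upper end, so shared reads could weigh on Lipt1, and it rose in uIRI against sham (log2 change 0.91 ± 0.23 SE, adjusted p = 0.00868 by edgeR). Map3k15 had 279 to 853 counts a library, against 4374 to 8864 of Pdha1, and fell (-2.40 ± 0.24, adjusted p = 0.000107). The part of shared reads in the changes of Lipt1 and Pdha1 was not tested. Pdha2, the autosomal copy of Pdha1, had 0 counts in every library.

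The libraries held 11592986 to 22652718 counts in uIRI+MSC, 18426077 to 24300112 in uIRI and 14185677 to 14588506 in sham, and markers of kidney (proximal tubule and thick ascending limb lists) were present in every library. Transcripts of mitochondrial DNA took 6.07 to 11.3% of the counts in uIRI+MSC, 3.49 to 4.84% in uIRI and 14.2% in both sham libraries. Levels in CPM below are counts normalised to library size and scaled by TMM, which corrects for a few abundant genes filling a library. The median log2 change of all tested genes in uIRI against sham was 0.06 with TMM and 0.73 with library size alone, that in uIRI+MSC against uIRI was -0.01 and -0.16, and that in uIRI+MSC against sham was 0.03 and 0.55, so every change below is relative to the TMM scaling. FPKM values, which are per gene length and were not TMM-scaled by the authors, set one gene beside another and give ratios and ranks. The summed marker levels and the range of Fdx1l below are also in FPKM, so their differences between libraries lack the TMM scaling.

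By FPKM Dld, Dlst, Pdha1 and Pdhb were the most abundant members in every group, and the lipoyl transferases the scarcest. In sham the order ran from Dld (171 ± 3.11 FPKM, SD, n = 2) through Dlst (159 ± 0.973), Pdha1 (146 ± 4.69), Pdhb (110 ± 1.03), Fdx1 (72.6 ± 8.84), Gcsh (63.8 ± 0.81), Dlat (32.4 ± 2.07) and Lias (5.81 ± 0.0443) to Lipt1 (1.97 ± 0.039) and Lipt2 (1.86 ± 0.17). Fdx1 and Gcsh differed by about the spread of Fdx1, and the libraries of Lipt1 and Lipt2 overlapped. In uIRI+MSC the order ran Dlst (99.4 ± 9.53 FPKM, SD, n = 3), Dld (93.0 ± 2.68), Pdha1 (88.6 ± 3.84), Pdhb (62.7 ± 4.27), Fdx1 (34.8 ± 11.0), Gcsh (25.3 ± 2.55), Dlat (18.0 ± 0.284), Lias (4.76 ± 0.115), Lipt2 (2.06 ± 0.363) and Lipt1 (1.35 ± 0.17). In uIRI it was the same, with Dlst at 75.0 ± 12.8 FPKM (SD, n = 3), Dld at 70.4 ± 10.5, Pdha1 at 64.4 ± 5.26, Pdhb at 59.9 ± 3.81, Fdx1 at 28.1 ± 5.96, Gcsh at 24.2 ± 1.03, Dlat at 14.6 ± 1.56, Lias at 4.36 ± 0.225, Lipt2 at 2.37 ± 0.303 and Lipt1 at 1.07 ± 0.146. Dlst, Dld and Pdha1 overlapped in both injured groups, as did Fdx1 and Gcsh, and in uIRI Pdhb overlapped with Pdha1 too. Lipt2 stood above Lipt1 in FPKM in all 3 uIRI+MSC and all 3 uIRI libraries.

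Setting uIRI beside sham shows the injured kidney at day 14. Of the 10 genes 9 fell, each at least 2-fold, 0 rose and Lipt2 did not pass (edgeR quasi-likelihood test, adjusted over all tested genes). Of all tested genes 26.3% fell at the same adjusted p, counted at any fold, and 54.6% passed in either direction. The share of all genes that fell at least 2-fold is not given here. The median log2 change of the 10 genes was -1.78, against 0.06 for all tested genes. The libraries of both groups did not overlap in 9 of the 10, where that was so, with uIRI lower, for 36.5% of all genes. In bulk tissue, fewer cells of a type and less RNA per cell cannot be told apart, which holds for every change given here.

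Fdx1, the electron donor, had 15.1, 25.1 and 22.5 CPM in uIRI 1, 2 and 3, against 96.2 and 74.6 CPM in sham 1 and 2. All uIRI libraries lay far below both sham libraries. The log2 change was -2.03 ± 0.29 (SE, adjusted p = 0.000521). Gcsh, the carrier on which lipoate is assembled, had 32.3, 37.8 and 34.7 CPM in uIRI against 154 and 139 CPM in sham, and its change of -2.07 ± 0.13 (adjusted p = 2.77e-05) had the smallest p of the 10. It also had the smallest relative spread of the 10 over the uIRI libraries, a coefficient of variation of 7.87%.

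Of the 3 enzymes that make and transfer the lipoyl group, Lias and Lipt1 fell and Lipt2 did not pass. Lias, lipoyl synthase, had 21.8, 26.0 and 24.9 CPM in uIRI against 53.6 and 48.9 CPM in sham, a change of -1.08 ± 0.13 (adjusted p = 0.0002). Lipt1, the transferase to the E2 subunits, had 2.86, 4.07 and 3.67 CPM in uIRI against 10.6 and 10.04 CPM in sham, a change of -1.54 ± 0.23 (adjusted p = 0.000637). Lipt2, the first transferase of the route, had 3.17, 3.96 and 3.01 CPM in uIRI against 4.66 and 3.78 CPM in sham. Its groups overlapped, its change of -0.32 ± 0.27 did not pass (adjusted p = 0.338), and with library size alone its direction turned (0.35, adjusted p = 0.275). Lipt1 and Lipt2 rest on 54 to 134 and 33 to 108 counts a library, so counting error weighs more on them than on the other 8.

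Within pyruvate dehydrogenase, which turns pyruvate into acetyl-CoA, all 3 subunits in the set fell. Pdha1, the E1 alpha subunit that is switched by phosphorylation, had 195, 247 and 233 CPM in uIRI against 861 and 758 CPM in sham (-1.85 ± 0.16, adjusted p = 5.77e-05). Pdhb, the E1 beta subunit, had 67.4, 82.0 and 79.7 CPM in uIRI against 231 and 216 CPM in sham (-1.55 ± 0.13, adjusted p = 5.51e-05). Dlat, the lipoylated E2 subunit and the main copper-binding protein of cuproptosis in human cells, had 58.9, 78.9 and 70.2 CPM in uIRI against 242 and 244 CPM in sham (-1.81 ± 0.14, adjusted p = 4.51e-05). The groups were far apart for each of them, and no uIRI library came near a sham library.

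Dlst, the E2 subunit of 2-oxoglutarate dehydrogenase in the TCA cycle, had 138, 211 and 188 CPM in uIRI against 626 and 572 CPM in sham (-1.75 ± 0.19, adjusted p = 0.000153). Dld, the E3 subunit that reoxidises the lipoyl group in all of these complexes and in glycine cleavage, had 111, 162 and 134 CPM in uIRI against 550 and 494 CPM in sham (-1.94 ± 0.17, adjusted p = 6.24e-05). Here, too, the groups did not overlap, and uIRI 1 was the lowest library.

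**Figure D1:**
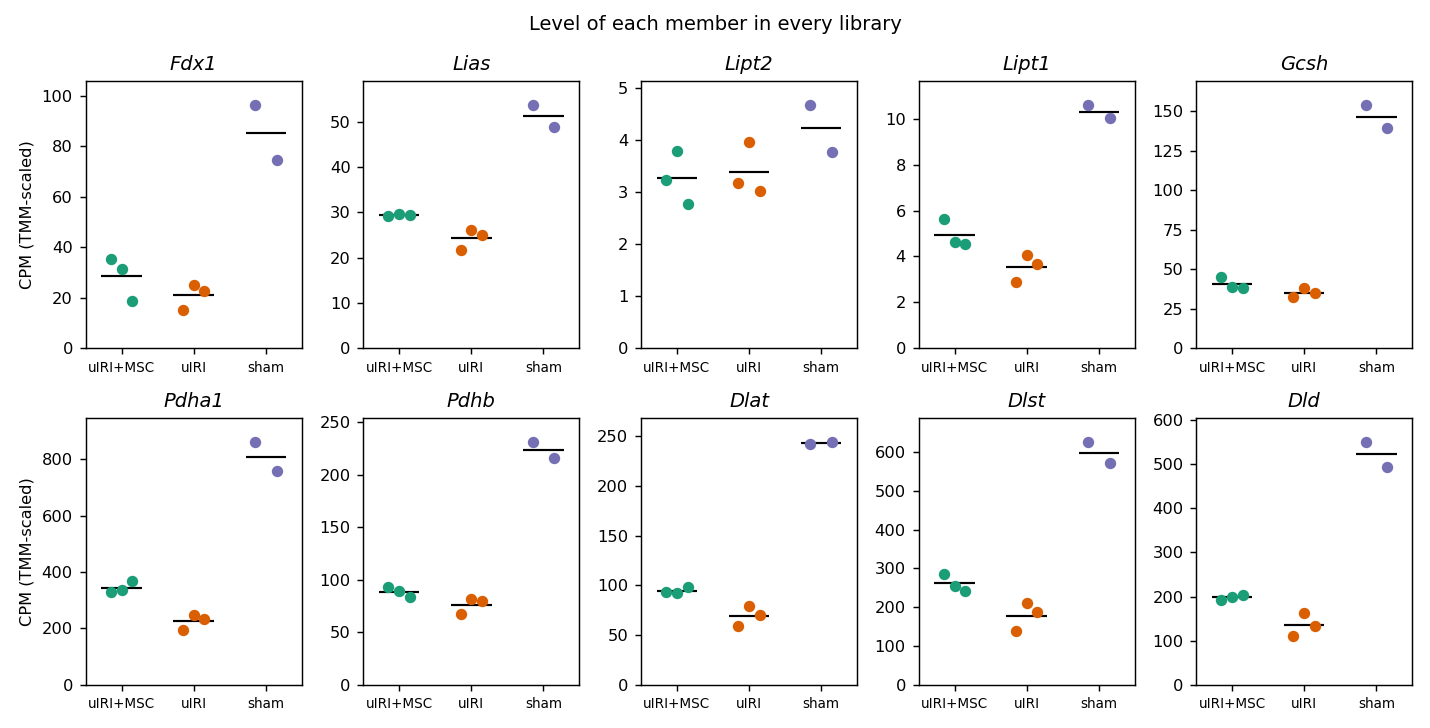
Level of each of the 10 genes in CPM (TMM-scaled, linear axis from 0) in uIRI+MSC (green), uIRI (orange) and sham (purple); each point is a library and each line a group mean. For 9 genes both sham points lie above all others, while Lipt2 lies between 2.77 and 4.66 CPM with its groups mixed.

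The uIRI libraries were not alike. The lowest uIRI level was in uIRI 1 for 9 of the 10 genes, the exception being Lipt2. Within sham the lowest level was in sham 2 for 9 genes, and within uIRI+MSC it was in uIRI+MSC 3 for 6. How often each library was lowest over all tested genes was not counted. The library uIRI 1 had the lowest summed proximal tubule level of its group (527 FPKM over 10 markers, against 1630 and 1351 FPKM in uIRI 2 and 3). Its macrophage level was the highest (4075 FPKM over 8 markers, against 2342 and 3196 FPKM). Leaving out uIRI 1 left all 9 falls called, with a median log2 change of -1.64.

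Setting uIRI+MSC beside uIRI asks what transplantation changed in the injured kidney. None of the 10 genes passed, and neither did any of the 16576 tested genes in edgeR (0% in either direction, adjusted p of the 10 from 0.111 to 0.926). At an unadjusted p under 0.05, 3418 genes (20.6%) stood out, DESeq2 passed 1364 genes and limma-voom 0. By level, 9 of the 10 genes were higher in uIRI+MSC, with a median log2 change of 0.45 against -0.01 for all tested genes, of which 49% were above 0. In 8 of the 10, each uIRI+MSC library lay above each uIRI library, which was so for 14.1% of all tested genes. An unadjusted p under 0.05 was reached by 6 of them, all with higher values, and by 11.3% of all genes in that direction.

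Pdha1 had the largest difference, with 328, 336 and 367 CPM in uIRI+MSC 1, 2 and 3 against 195, 247 and 233 CPM in uIRI 1, 2 and 3. Its log2 change was 0.61 ± 0.14 (SE), with an adjusted p of 0.111 in edgeR and 0.00244 in DESeq2. Dld had 192, 200 and 204 CPM in uIRI+MSC against 111, 162 and 134 CPM in uIRI, a change of 0.55 ± 0.15 with an adjusted p of 0.124 in edgeR and 0.0271 in DESeq2. Dlat had 93.5, 91.9 and 98.5 CPM in uIRI+MSC against 58.9, 78.9 and 70.2 CPM in uIRI, a change of 0.45 ± 0.13 with an adjusted p of 0.129 in edgeR and 0.0411 in DESeq2. These were the 3 members that DESeq2 passed, and for each of them the lowest uIRI+MSC library was above the highest uIRI library.

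Dlst had 287, 255 and 243 CPM in uIRI+MSC against 138, 211 and 188 CPM in uIRI (0.55 ± 0.17, adjusted p = 0.142). The groups did not overlap, though the distance between their nearest libraries was smaller than the range within uIRI. The same held for Dld and Dlat, but not for Pdha1. The differences of Pdhb (0.21 ± 0.12, adjusted p = 0.347) and Gcsh (0.22 ± 0.12, adjusted p = 0.349) were smaller. Gcsh had 44.8, 38.7 and 37.9 CPM in uIRI+MSC against 32.3, 37.8 and 34.7 CPM in uIRI, so its groups nearly touched.

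Among the synthesis genes Lias was the most even, with 29.1, 29.6 and 29.4 CPM in uIRI+MSC against 21.8, 26.0 and 24.9 CPM in uIRI (0.28 ± 0.11, adjusted p = 0.221). Lipt1 had 5.61, 4.65 and 4.53 CPM in uIRI+MSC against 2.86, 4.07 and 3.67 CPM in uIRI (0.49 ± 0.21, adjusted p = 0.240). Lipt2 had 3.22, 3.79 and 2.77 CPM in uIRI+MSC against 3.17, 3.96 and 3.01 CPM in uIRI (-0.05 ± 0.24, adjusted p = 0.926), and the sign of that difference turned when uIRI+MSC 3 or uIRI 2 was left out (0.06 and 0.08). Fdx1 was split within its group, with 35.3, 31.2 and 18.7 CPM in uIRI+MSC 1, 2 and 3 against 15.1, 25.1 and 22.5 CPM in uIRI. The library uIRI+MSC 3 lay inside the uIRI range for Fdx1, and Fdx1 differed by 0.45 ± 0.26 (adjusted p = 0.374), or by 0.68 without that library. This library also had the highest share of mitochondrial DNA transcripts among the injured kidneys, 11.3% of its counts, and the part of that in the low Fdx1 was not tested.

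Setting uIRI+MSC beside sham asks what distance was left after transplantation. It shares its sham libraries with the first comparison and its uIRI+MSC libraries with the second, so the 3 comparisons are not independent of each other. Again 9 genes fell, 8 of them at least 2-fold, and Lipt2 did not pass (-0.37 ± 0.27, adjusted p = 0.300). Of all tested genes 20.3% fell, counted at any fold. In the same 9 genes every uIRI+MSC library lay below both sham libraries, as it did for 31.2% of all tested genes. The median log2 change of the 10 genes was -1.28, against 0.03 for all tested genes.

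Set against the sham mean in CPM, Gcsh stood lowest in both injured groups, at 27.7% in uIRI+MSC and 23.9% in uIRI. Fdx1 stood at 33.3% in uIRI+MSC and 24.5% in uIRI, Dld at 38.0% and 26.0%, Dlat at 39.0% and 28.5%, Pdhb at 39.7% and 34.2%, and Pdha1 at 42.5% and 27.8%, in the same order of groups. Dlst stood at 43.7% in uIRI+MSC and 29.8% in uIRI, Lipt1 at 47.8% and 34.3%, and Lias at 57.3% and 47.3%. The log2 change of uIRI+MSC against sham was -1.85 ± 0.13 for Gcsh (adjusted p = 7.28e-05), -1.58 ± 0.29 for Fdx1 (adjusted p = 0.00307) and -0.80 ± 0.13 for Lias (adjusted p = 0.00152). Dld (-1.40 ± 0.17), Dlat (-1.36 ± 0.14), Pdhb (-1.33 ± 0.13), Pdha1 (-1.24 ± 0.16) and Dlst (-1.19 ± 0.19) lay between these, with adjusted p-values of 0.000193 to 0.00162 in edgeR, and Lipt1 changed by -1.06 ± 0.23 (adjusted p = 0.00672). Lias and Lipt1 lost their call in this comparison with library size alone (-0.29, adjusted p = 0.0736, and -0.54, adjusted p = 0.0759), and Lipt1 also lost it without sham 1 (-0.99, adjusted p = 0.0528).

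**Figure D2:**
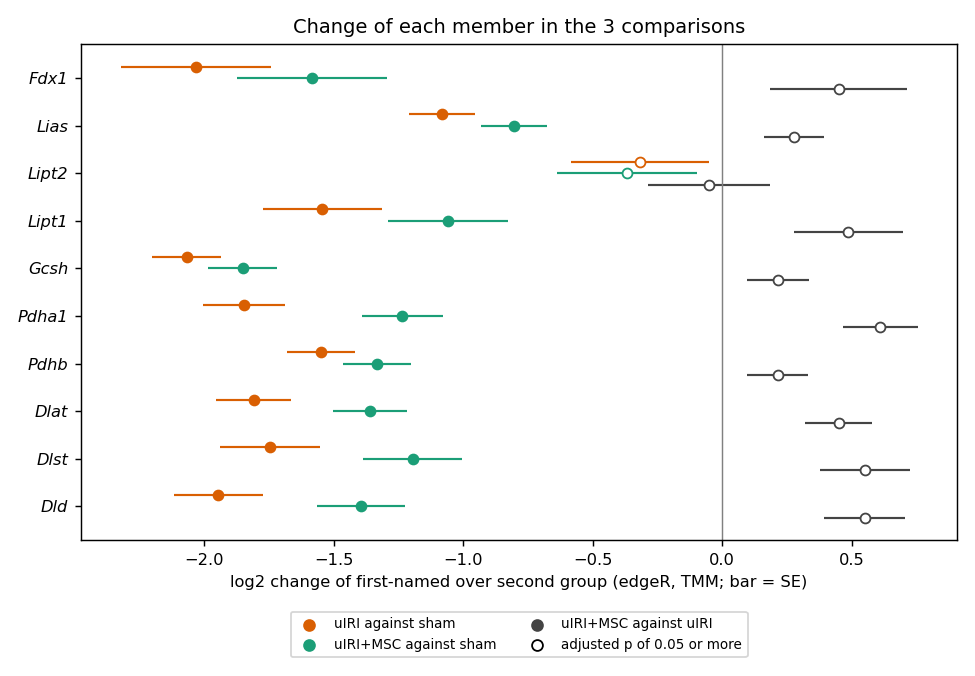
Log2 change of each gene (edgeR with TMM; points are estimates and bars 1 SE) in uIRI against sham (orange), uIRI+MSC against sham (green) and uIRI+MSC against uIRI (grey); open points did not pass an adjusted p of 0.05. Both comparisons with sham lie left of 0, from -2.07 for Gcsh to -0.32 for Lipt2 in uIRI, and all 10 points of uIRI+MSC against uIRI are open.

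The size of the fall below sham depended on the scaling for every gene, by a nearly constant step, as the plot of 3 scalings shows. With library size alone Gcsh changed by -1.40 in uIRI against sham (adjusted p = 4.39e-05), Fdx1 by -1.37 (adjusted p = 0.00251) and Lias by -0.41 (adjusted p = 0.0142), and the same number of genes, 9, fell. Fewer of all tested genes fell with this scaling than with TMM, and the closing section gives both counts. A rank within a library needs no scaling, though it moves when many other genes rise or fall. By FPKM, Lias lay above 45.9 to 49.9% of the tested genes in the uIRI libraries and above 65.9 and 67.4% in sham, and Lipt1 above 17.6 to 22.8% in uIRI and 42.6 and 44.6% in sham. Lipt2 lay above 30.95 to 37.4% in uIRI and 39.9 and 44.8% in sham. In these ranks, too, the distance was smallest for Lipt2 of the 3 synthesis genes. Unlike in CPM, its uIRI libraries all ranked below both sham libraries.

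**Figure D3:**
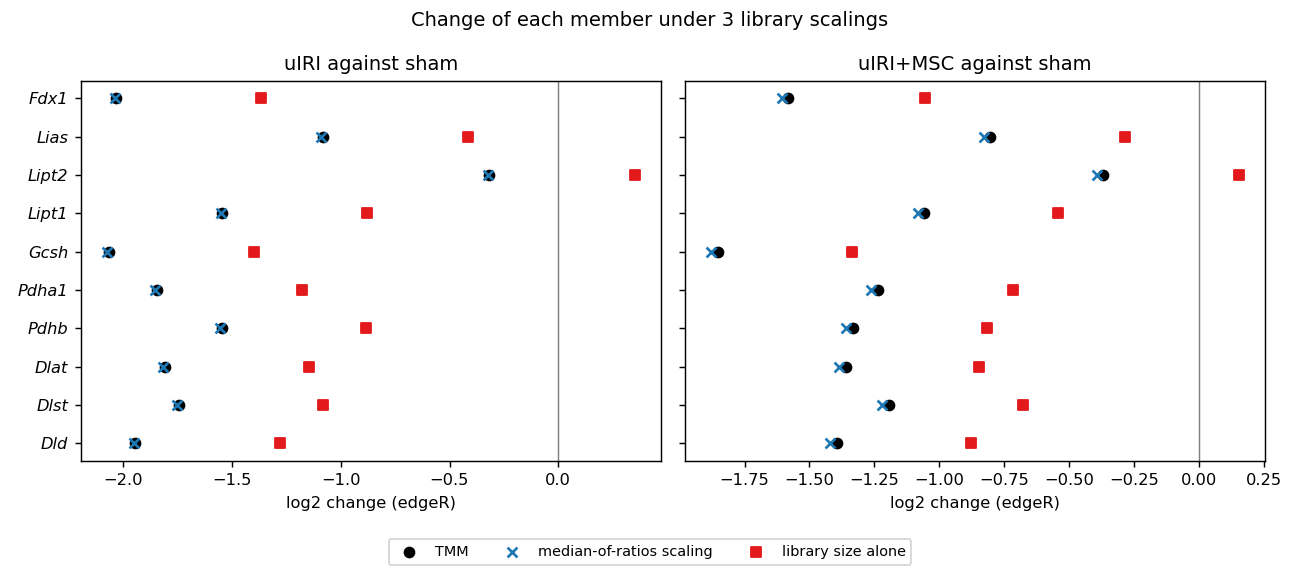
Log2 change of each gene against sham in uIRI (left) and uIRI+MSC (right) with edgeR under TMM (black circles), median-of-ratios (blue crosses) and library size alone (red squares). Library size alone moves every gene to the right by a similar step, and Lipt2 alone crosses 0.

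Ratios of one gene to another in the same library do not depend on the scaling either. These ratios are of FPKM values, and 5 were compared in each of 3 comparisons by an exact two-sided permutation test over libraries. With 3 libraries against 3 the smallest p the test can give is 0.1, and with 3 against 2 it is 0.2, so none could pass, and all 15 had an adjusted p of 0.375 or more. The ratio of Lias to Fdx1 was 0.191, 0.138 and 0.147 in uIRI against 0.0741 and 0.0872 in sham, with no overlap (exact permutation p = 0.2). In uIRI+MSC it was 0.110, 0.126 and 0.209, the last of them uIRI+MSC 3, the library with low Fdx1. The ratio of Lipt1 to Lipt2 was 0.391, 0.444 and 0.527 in uIRI against 0.982 and 1.15 in sham, again with no overlap (exact permutation p = 0.2), and 0.752, 0.530 and 0.708 in uIRI+MSC.

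Within pyruvate dehydrogenase, the ratio of Pdhb to Pdha1 was 0.774, 0.729 and 0.624 in uIRI+MSC against 0.949, 0.909 and 0.937 in uIRI, with no overlap (exact permutation p = 0.1), and 0.736 and 0.780 in sham. The ratio of E2 to E1 alpha, Dlat to Pdha1, was 0.210, 0.202 and 0.198 in uIRI+MSC against 0.223, 0.235 and 0.222 in uIRI (exact permutation p = 0.1), and in sham it was 0.207 and 0.237. The sham values overlapped with both injured groups, though uIRI+MSC 2 and 3 lay below the lower of them. The ratio of the E2 subunits, Dlst to Dlat, ranged from 4.93 to 6.12 in uIRI+MSC, from 4.67 to 5.33 in uIRI and from 4.68 to 5.17 in sham, and overlapped in every comparison. The sum of the 10 genes over that of 14 TCA cycle enzymes with no lipoyl group was 0.530 to 0.571 in uIRI+MSC, 0.534 to 0.578 in uIRI and 0.565 to 0.574 in sham, so the members as a sum held nearly the same share beside the rest of the pathway in all 8 libraries. The abundant Dld, Dlst, Pdha1 and Pdhb make up most of that sum, and the scarce Lias, Lipt1 and Lipt2 hardly weigh on it.

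**Figure D4:**
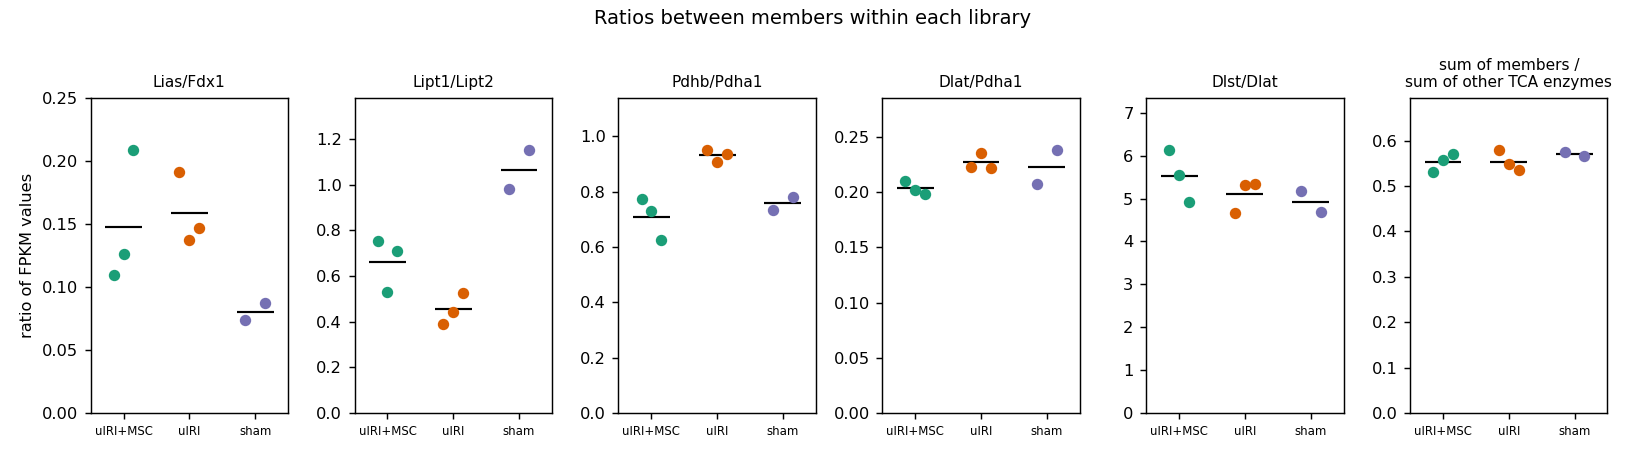
Ratios of FPKM values within each library (axes from 0) for 5 pairs of genes and, at the right, for the sum of the 10 genes over the sum of 14 TCA cycle enzymes with no lipoyl group; points are libraries and lines group means. Lias/Fdx1 is higher and Lipt1/Lipt2 lower in uIRI than in sham, Pdhb/Pdha1 is higher in uIRI (0.909 to 0.949) than in uIRI+MSC (0.624 to 0.774), and the summed ratio stays between 0.530 and 0.578.

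The other genes of the pathway were followed in lists by role. Of 7 further subunits of the 2-oxoacid dehydrogenases 6 fell in uIRI against sham, 0 rose and Ogdhl did not pass (0.56 ± 0.26, adjusted p = 0.0978), with a list median of -1.65. With library size alone 6 of the 7 fell and 1 rose. They included Dhtkd1, an E1 enzyme of lysine breakdown (-2.74 ± 0.26), Dbt, the lipoylated E2 of branched-chain amino acid breakdown (-2.44 ± 0.21), Ogdh, the E1 of 2-oxoglutarate dehydrogenase (-1.63 ± 0.20), and Pdhx, which holds DLD in pyruvate dehydrogenase (-1.42 ± 0.12). In uIRI+MSC against uIRI, Dhtkd1 differed by 1.07 ± 0.23 and Dbt by 0.68 ± 0.19, and 0 of the 7 passed. Both partners of GCSH in glycine cleavage fell in uIRI against sham, the decarboxylase gene Gldc (-2.73 ± 0.34) and the aminomethyltransferase gene Amt (-1.69 ± 0.22).

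Upstream of lipoate, all 6 tested genes of mitochondrial fatty acid synthesis, which makes the octanoyl precursor, fell in uIRI against sham (median -1.33). Oxsm, its condensing enzyme, changed by -1.72 ± 0.17, Ndufab1, its acyl carrier protein and also a subunit of complex I, by -1.62 ± 0.21, Mcat by -1.21 ± 0.18 and Aasdhppt, which primes carrier proteins, by -0.88 ± 0.12. Of 13 genes that build and deliver iron-sulfur clusters, which LIAS consumes, 12 fell, 0 rose and Nfu1 did not pass (median -1.39). The cysteine desulfurase gene Nfs1 changed by -2.14 ± 0.22, the chaperone gene Hspa9 by -1.81 ± 0.20, Bola3 by -1.59 ± 0.19 and the scaffold gene Iscu by -1.57 ± 0.16. With library size alone 4 of the 6 and 8 of the 13 fell.

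Of 9 genes that supply cofactors and pyruvate or remove lipoyl groups 8 fell (median -1.51), and 6 did so with library size alone. The CoA carrier gene Slc25a42 changed by -3.07 ± 0.33 and the pyruvate carrier gene Mpc1 by -2.22 ± 0.27. Of 7 kinases and phosphatases of pyruvate dehydrogenase 5 fell and the phosphatase gene Pdp1 rose (0.82 ± 0.23, adjusted p = 0.0149), a gene named here after its value was seen. The kinase genes Pdk4 (-1.99 ± 0.34), Pdk2 (-1.77 ± 0.24) and Pdk3 (-1.74 ± 0.19) fell, as did the phosphatase regulator gene Pdpr (-1.27 ± 0.12).

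Pdk4, the kinase that shuts pyruvate dehydrogenase when fat is burned, had 68.7, 67.3 and 29.8 CPM in uIRI+MSC 1, 2 and 3 against 15.3, 13.9 and 15.9 CPM in uIRI, and 72.2 and 46.9 CPM in sham. The uIRI+MSC and uIRI groups did not overlap, and the difference was 1.88 ± 0.31 (SE) with an adjusted p of 0.111, which did not pass. Against sham, uIRI+MSC differed by -0.10 ± 0.34 (adjusted p = 0.824). The lowest uIRI+MSC library was again uIRI+MSC 3.

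All 14 TCA cycle enzymes with no lipoyl group fell in uIRI against sham, with a median of -1.85 beside -1.78 for the 10 genes. Sucla2 changed by -1.89 ± 0.17, Sdhc by -1.92 ± 0.19, Idh3g by -1.67 ± 0.16 and Idh3a by -1.64 ± 0.16. In uIRI+MSC against sham all 14 fell again, beside 6 of the 7 further dehydrogenase subunits, 2 of 2 glycine cleavage genes, 6 of 6 fatty acid synthesis genes, 11 of 13 iron-sulfur genes, 6 of 9 cofactor genes and 5 of 7 kinases and phosphatases. With library size alone these counts were 12, 6, 2, 2, 4, 5 and 3. In uIRI+MSC against uIRI the median of the TCA enzymes was 0.47 beside 0.45 for the 10 genes, and 0 of the 14 passed. Of the genes whose loss sensitised human cells in the cuproptosis screen, Mtf1 did not pass in uIRI against sham (-0.16 ± 0.15, adjusted p = 0.394), while Cdkn2a had 86, 33 and 31 counts in uIRI against 0 and 1 in sham (adjusted p = 0.00143) and 14, 6 and 6 in uIRI+MSC. The copper importer gene Slc31a1 had 150, 147 and 147 CPM in uIRI+MSC against 81.8, 117 and 103 CPM in uIRI (0.56 ± 0.15, adjusted p = 0.123), and 317 and 268 CPM in sham. It fell in uIRI against sham (-1.54 ± 0.17), as did the copper exporter gene Atp7b (-2.23 ± 0.36), while Atp7a did not pass (0.27 ± 0.21, adjusted p = 0.302). With library size alone 2 of these 3 genes fell and 1 rose.

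**Figure D5:**
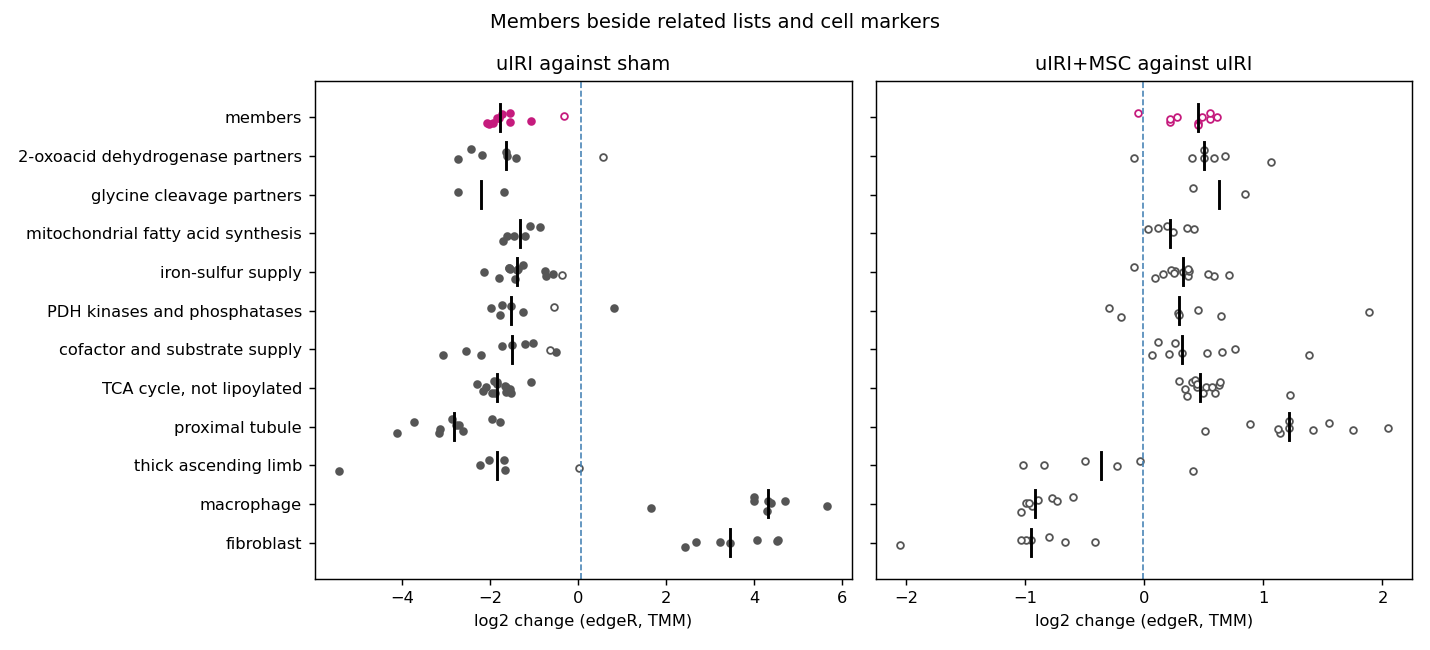
Log2 change (edgeR with TMM) of the 10 genes (pink) and of related lists and cell markers (grey) in uIRI against sham (left) and uIRI+MSC against uIRI (right). Filled points passed an adjusted p of 0.05, black bars are list medians and the dashed line is the median of all tested genes; the 10 genes, at medians of -1.78 and 0.45, lie beside the other TCA cycle enzymes, at -1.85 and 0.47.

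Markers of cell types changed too, some falling and some rising. All 10 proximal tubule markers fell in uIRI against sham (median -2.83), and their summed level was 2299 to 2842 FPKM in uIRI+MSC, 527 to 1630 FPKM in uIRI and 5208 to 5314 FPKM in sham. Of 6 thick ascending limb markers 5 fell, with sums of 385 to 1130 FPKM in uIRI+MSC, 978 to 1373 FPKM in uIRI and 2352 to 2910 FPKM in sham. All 8 macrophage markers rose, with sums of 1264 to 1598 FPKM in uIRI+MSC, 2342 to 4075 FPKM in uIRI and 77.5 to 79.8 FPKM in sham, and so did all 7 fibroblast markers (247 to 465 FPKM in uIRI+MSC, 503 to 1248 FPKM in uIRI, 36.4 to 51.4 FPKM in sham) and all 6 T cell markers. No marker of these lists passed in uIRI+MSC against uIRI. The part of these shifts in cell makeup in the changes of the 10 genes was not tested. The adrenal cortex, a neighbouring gland rich in Fdx1, was nearly absent, with 7 markers summing to 0.898 to 1.94 FPKM in uIRI+MSC, 2.08 to 2.80 FPKM in uIRI and 0.228 to 0.717 FPKM in sham, and with Cyp11a1, Cyp11b1 and Cyp21a1 at 0 counts in both sham libraries. The 5 markers of fat summed to at most 0.473 FPKM in any library.

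The genes whose pattern was most like the mean of the 10 were found by the root mean square difference of centred log2 CPM over the 8 libraries, among 11047 other genes with a mean of at least 10 CPM. The 8 nearest were Dnaja3 (0.049), Gfm2 (0.054), Plekhb1 (0.059), Ttc38 (0.060), Zfp706 (0.063), Ak3 (0.066), Chchd3 (0.073) and Mocs2 (0.073). By the same measure the members themselves lay at 0.082 (Pdhb), 0.091 (Lipt1), 0.108 (Dlst), 0.117 (Dlat), 0.148 (Pdha1), 0.159 (Dld), 0.217 (Lias), 0.257 (Gcsh), 0.290 (Fdx1) and 0.515 (Lipt2) from their own mean. Lipt2 thus lay farthest from the common profile.

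A window at each RefSeq start (250 bases before to 50 after, GRCm38.p6, 12 windows for the 10 genes) was searched on both strands for 8 short motifs. Each motif is given with its share of 32851 such windows. A CCAAT box (CCAAT) was in 5 of the 10 genes and 37.4% of all windows, an SP1 box (GGGCGG) in 7 and 35.7%, the core of the metal factor MTF1 (TGCNCNC) in 4 and 51.03%, a GABPA site (CCGGAAG) in 2 and 8.86%, an NRF1 site in 1, Dld, and 4.60%, and an E-box (CACGTG) in 1 and 7.15%. ERR (TNAAGGTCA) and YY1 (AAGATGGC) were in 0 of the 10, and 1.28% and 2.75% of all windows. The counts of members are per gene, with a match in any window of the gene, and Lipt1 has several windows. The shares of all windows are per window, so the units differ. These motifs can overlap each other, and a match describes letters, not binding. Fdx1, Lias, Dlat, Pdha1 and Dlst had no match to the CCAAT box. Whether any of these motifs had a part in the changes was not tested. The 150 bases before the start are shown for Pdhb, with 3 CCAAT boxes there on the other strand, Gcsh, with 1, and Lipt2, with 1 (5′ to 3′ on the gene's strand, motifs of CCAAT, GABPA, NRF1 and ERR in capitals).
Pdhb, chr14:8172993-8173142, minus strand: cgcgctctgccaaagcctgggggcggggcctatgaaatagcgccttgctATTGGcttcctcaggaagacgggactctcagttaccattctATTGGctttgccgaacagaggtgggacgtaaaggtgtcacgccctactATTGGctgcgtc
Gcsh, chr8:116993499-116993648, minus strand: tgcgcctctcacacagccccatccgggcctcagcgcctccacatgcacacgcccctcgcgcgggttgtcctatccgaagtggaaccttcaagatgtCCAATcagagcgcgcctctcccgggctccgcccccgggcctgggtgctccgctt
Lipt2, chr7:100159127-100159276, plus strand: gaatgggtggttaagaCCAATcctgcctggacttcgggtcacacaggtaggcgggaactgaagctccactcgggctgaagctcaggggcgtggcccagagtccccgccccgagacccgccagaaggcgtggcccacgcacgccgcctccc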

How the data were processed

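Per the file headers, the deposited table gives raw read counts and FPKM values for each gene and library, both made by the authors. The submitters' processing notes name, for GRCm38, the tools StringTie 1.3.3b, HISAT2 2.0.4, edgeR 3.2.0, Bowtie2 2.2.6, FastQC 0.10.1 and SAMtools 1.9, without saying which step each served. The sources used here do not state the counting program, its strand setting or the annotation release. After correction for depth, FPKM over count was constant across libraries within 0.1% for the 9632 genes with at least 100 counts throughout. Counts served for every model, and FPKM for levels between genes, ratios, ranks and summed marker levels.

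Genes were kept by filterByExpr (minimum count 10) and fitted with the quasi-likelihood model of edgeR 4.0.16 (R 4.3.3, TMM, glmQLFit with legacy=TRUE, all 8 libraries, no covariates, 5 residual degrees of freedom), with Benjamini-Hochberg adjustment over the 16576 tested genes at 0.05. Each SE comes from the log2 change and the F statistic. DESeq2 1.42.0, limma-voom (limma 3.58.1) and the other alternatives are given in the closing section. The fit was tested on simulated data. Of each list the 4 genes with the smallest p in uIRI against sham were named, and the 8 genes nearest in pattern. Some genes that this rule names are not reported here. Pairs of replicate libraries gave a chi-square per degree of freedom of 18.7 to 72.9, so none was a copy of another. The members, lists, motifs and naming rule were chosen with earlier results of these data known. One gene of the fatty acid synthesis list was not analysed here. Python 3.11.15 with matplotlib 3.10.9 made the figures.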

Additional observations from a re-analysis of the deposited data

How the results depend on the processing

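All 10 genes were refitted under 17 alternatives in each comparison. Of 510 such values 500 kept their direction and side of the threshold. Lipt2 turned with library size alone, to 0.35 in uIRI against sham and 0.15 in uIRI+MSC against sham, and in uIRI+MSC against uIRI to 0.06 without uIRI+MSC 3 and 0.077 without uIRI 2, in a range of -0.17 to 0.077 over the libraries left out. In uIRI+MSC against uIRI, DESeq2 passed 3 of the 10 genes and 1364 of all genes, where edgeR passed 0 of each, and the cause was not tested. Leaving out 1 library gave 9 of the 10 genes in uIRI against sham, 0 in uIRI+MSC against uIRI and 8 to 9 in uIRI+MSC against sham. Over all genes it gave 6386 to 9863, 0 to 8 and 3938 to 6914 calls in the same order of comparisons, the lowest of uIRI+MSC against sham (7029 with all libraries) without sham 1, a fit with fewer samples that takes the spread of the lone sham library from the other groups. The calls without 1 library in uIRI+MSC against uIRI were 8 without uIRI 1, 3 without uIRI 3 and 2 without uIRI+MSC 1 or uIRI+MSC 3. Of the log2 ratios, Dlat/Pdha1 (-0.068 without sham 1, in a range of -0.068 to 0.13) and Dlst/Dlat (-0.019 without sham 2, in a range of -0.019 to 0.12) turned in uIRI against sham, and Lias/Fdx1 (0.046 without uIRI+MSC 1, in a range of -0.42 to 0.046) in uIRI+MSC against uIRI. With library size alone 9044 genes were higher and 1989 lower in uIRI against sham, and 7400 higher and 1352 lower in uIRI+MSC against sham, beside 4683 and 4361, and 3671 and 3358, with TMM. The labels number replicates alike in each group. The deviations of same-numbered libraries correlated at -0.21 to 0.11. Of the 6 uIRI+MSC and uIRI libraries 0 correlated best with their own number. No pairing by number was seen, though with so few libraries this check cannot exclude a weak one. With a replicate block 9 of the 10 genes and 7959 of all genes passed in uIRI against sham, 0 and 0 in uIRI+MSC against uIRI, and 9 and 5753 in uIRI+MSC against sham. For the other lists, the scalings were compared after the data were seen. Depth limits Lipt1 and Lipt2, which had at most 134 counts in a library.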

Other observations

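Genes close to the set did not all follow it. Fdx1l, the second mitochondrial ferredoxin gene, which serves iron-sulfur cluster assembly, differed by -0.49 ± 0.23 (SE) in uIRI against sham and did not pass (adjusted p = 0.0938 by edgeR), beside -2.03 for Fdx1. It lay between 14.1 and 23.5 FPKM in all 8 libraries. Ogdhl, a relative of Ogdh in the E1 position, was the 1 further subunit that was higher than sham, at 16.6, 14.3 and 11.3 CPM in uIRI+MSC against 5.25 and 8.19 CPM in sham (1.06 ± 0.26, adjusted p = 0.0119), and at 9.76, 11.2 and 8.85 CPM in uIRI. Both genes were named after their values were seen.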
